A study of Mus musculus with 6 samples.

Results

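The genes described here code for the proteins that take in, fold, trim and glycosylate new proteins in the endoplasmic reticulum (ER), and for the sensors that watch over that work. They were taken by symbol from a list of 47 genes, drawn up by function with earlier results of these data known. The list held 12 ER chaperones and folding helpers, 5 disulfide-forming enzymes, 4 genes of the unfolded protein response (UPR) and 7 of ER-associated degradation. It also held 9 genes of the translocon, 4 of signal peptidase and 6 of the oligosaccharyltransferase. All 47 matched 1 of the 43432 genes in the count table. A mean normalized count of at least 10 was reached by 46 of them, which were tested. The exception was Derl3, which codes for a derlin best known from secretory tissues and had 1 read in WT iGB6 replicate 2 (0.789 normalized counts) and 0 in the other 5 libraries.

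The RNA came from CD11b+ spleen cells of 6 mice (C57BL/6J, Rag1 KO), taken on day 8 after cell transfer and sequenced in bulk as 1 library per mouse. The 3 WT iGB6 mice had received wild-type B cells from the iGB culture that carried a pMSCV-IRES2-eGFP retrovirus with the Il6 gene. The 3 IgHMOG iGBGFP mice had received iGB-cultured B cells with the IgHMOG heavy chain and the empty pMSCV vector. In both groups the B cells spent 48 hours in culture before the vector was added, were loaded with MOG protein and were given alongside 2D2 CD4+ T cells that had not been manipulated. B cell genotype and vector changed together between the groups and cannot be told apart. Each group had 1 female (replicate 1) and 2 males (replicates 2 and 3), and Rag1 KO recipients make no mature B or T cells of their own.

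Proteins bound for granules, the cell surface or export enter the ER through the Sec61 channel, lose their signal peptide to signal peptidase and receive N-glycans from the oligosaccharyltransferase while they are still being made. Chaperones such as BiP (Hspa5) and GRP94 (Hsp90b1) and the lectins calnexin and calreticulin hold them until they fold, and protein disulfide isomerases form their disulfide bonds. When unfolded protein builds up, the sensors IRE1 (Ern1), ATF6 and PERK (Eif2ak3) raise the supply of chaperones, slow translation and feed the degradation route. In neutrophil precursors this machinery makes the primary granule proteases and myeloperoxidase, and it is most abundant in plasma cells.

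The libraries held 5955142 to 7564254 reads in WT iGB6 and 5196339 to 6611212 in IgHMOG iGBGFP, and by counting error a gene at 0 may have had up to 3 reads, which is 2.37 to 3.56 normalized counts. The labels give each library its own mouse, so p-values measure the spread between mice. Itgam, which codes for CD11b, had 9561 to 12352 normalized counts in WT iGB6 and 6451 to 10606 in IgHMOG iGBGFP. Marker lists of other cell states moved with the groups. By the limma test described below, 2.75% of 9923 tested genes were called higher and 3.37% lower in WT iGB6. Of the tested primary granule and precursor genes, 10 of 10 were called higher in WT iGB6, and their list of 11 summed to 23015 to 37382 normalized counts in WT iGB6 and 5788 to 13345 in IgHMOG iGBGFP. Cell division genes were called higher for 10 of 14, with sums of 5921 to 11661 in WT iGB6 and 3397 to 4873 in IgHMOG iGBGFP. Called lower in WT iGB6 were 6 of 8 conventional dendritic cell genes, 6 of 7 MHC class II genes, 5 of 8 basophil and mast cell genes, 2 of 10 mature neutrophil genes and 1 of 5 plasma cell genes (Irf4, also a dendritic cell gene), whereas neither of 2 plasmacytoid dendritic cell genes and none of 7 myeloid identity genes passed. The plasma cell list summed to 1914 to 2337 normalized counts in WT iGB6 and 2561 to 4565 in IgHMOG iGBGFP. Ighm alone made up 1867 to 2279 of these in WT iGB6 and 2516 to 4014 in IgHMOG iGBGFP, and Sdc1, its defining surface marker, lay between 0 and 4.09 in all 6 libraries. IgHMOG iGBGFP replicate 3 stood apart, with Jchain at 69.0 and Ighg1 at 214 normalized counts, against at most 4.74 and 7.87 in the other 5 libraries. The part of these cell states in the results below was not tested.

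The comparison of WT iGB6 with IgHMOG iGBGFP asked whether this ER machinery differed between CD11b+ cells of the 2 kinds of recipient. One member passed the test: P4hb, the classical protein disulfide isomerase, was 1.64-fold higher in WT iGB6. No member was called lower. BiP, GRP94, calreticulin, calnexin and the 9 translocon genes did not pass, and the 4 UPR genes lay below IgHMOG iGBGFP in fitted value but did not pass either. The two-sided test was limma's, on log2(normalized count + 1) in a model of group and sex, with p-values adjusted over 9923 genes by Benjamini-Hochberg and called at 0.05. It called 6.12% of those genes, 2.75% higher and 3.37% lower in WT iGB6, so that 1 of 46 members (2.17%) was not above the background. On the recovered reads, edgeR called 1 member and 6.11% of all genes, and DESeq2 called 2 members (P4hb and Ero1l) and 9.58%. P4hb no longer passed in a model of group alone (adjusted p = 0.110), with scaling to library totals (adjusted p = 0.157) or when any library except WT iGB6 replicate 3 was left out (adjusted p 0.0557 to 0.183). Over all genes, the fits without IgHMOG iGBGFP replicates 1, 2 and 3 called 128, 4 and 26, against 607 in the main fit. Those without WT iGB6 replicates 1 and 2 called 135 and 1083, and the model of group alone called 10.

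**Figure D1:**
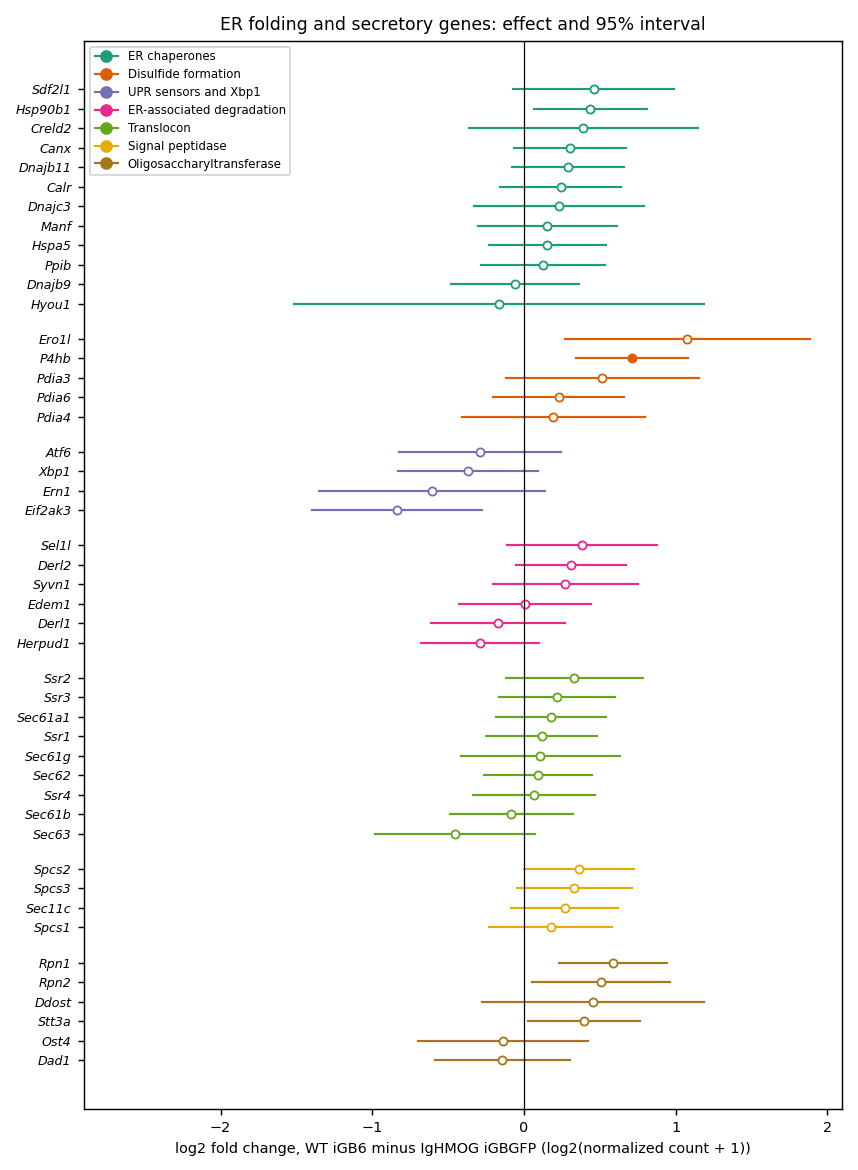
Fitted difference, WT iGB6 minus IgHMOG iGBGFP, of log2(normalized count + 1) for the 46 tested members, with limma's 95% intervals as bars and colours by role. The filled point is P4hb, the member that passed at 0.71, open points did not pass, and the 4 UPR genes all lie left of 0.

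The fitted log2 fold changes of the 46 members ran from -0.84 to 1.08. Their median was 0.20, against 0.02 over all 9923 genes, and 34 were above 0 (73.9%, against 51.6% of all genes) and 12 below. Where 0 falls depends on the scaling: with reads scaled to library totals, the median was -0.19 over all genes and 0.00 over the members. On that scale 23 members lay on each side of 0, while 6555 of all 9923 genes lay below it. Relative to the median of all genes the members lay 0.19 higher with the deposited size factors and 0.19 higher with library totals. Values of the 2 groups did not overlap for 11 members (23.9%), and the same was true of 23.6% of all genes. Of these members, 9 were higher in WT iGB6 (19.6% of those tested, against 12.2% of all genes) and 2 lower (4.35%, against 11.4%). An unadjusted p under 0.05 was reached by 8 members (17.4%) and by 24.5% of all genes: P4hb and Ero1l of the disulfide enzymes, Hsp90b1, Eif2ak3, Spcs2, Rpn1, Rpn2 and Stt3a. Outside the disulfide enzymes, 0 of 41 members passed with limma, edgeR or DESeq2. For 38 of 46 members the 95% interval of the log2 fold change lay inside -1 to 1, so short of a 2-fold difference either way, as it did for 56.1% of all genes, and the intervals of the other 8 members include such differences.

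**Figure D2:**
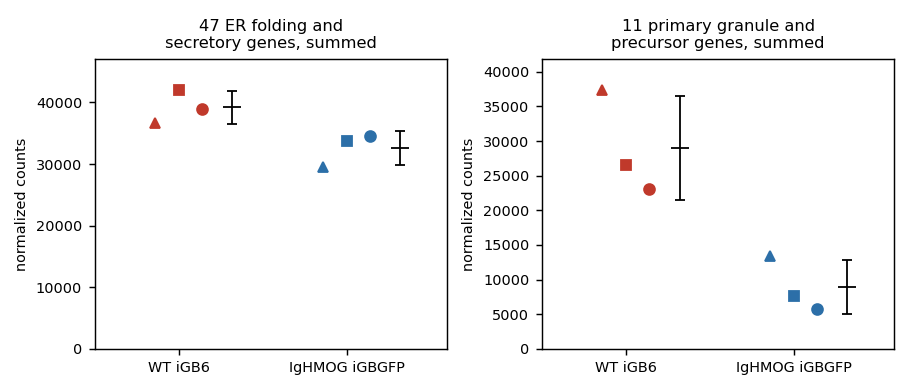
Summed normalized counts for the 47 ER genes and for the 11 primary granule and precursor genes, by library (triangle, square and circle for replicates 1, 2 and 3), with the mean and SD of 3 libraries. ER sums were 36624 to 42025 in WT iGB6 and 29536 to 34532 in IgHMOG iGBGFP, and granule sums 23015 to 37382 in WT iGB6 and 5788 to 13345 in IgHMOG iGBGFP.

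Summed over all 47 genes, the ER set held 36624, 42025 and 38992 normalized counts in WT iGB6 replicates 1, 2 and 3, against 29536, 33760 and 34532 in IgHMOG iGBGFP. The sums did not overlap and averaged 39214 ± 2707 in WT iGB6 and 32609 ± 2690 in IgHMOG iGBGFP (SD, n = 3 each). As a share of each library the same genes took 0.519, 0.704 and 0.542% in WT iGB6 and 0.445, 0.592 and 0.665% in IgHMOG iGBGFP, and these shares overlapped, at 0.588 ± 0.101% in WT iGB6 and 0.567 ± 0.112% in IgHMOG iGBGFP. Normalized counts and shares differ because the size factors do not bring the libraries to 1 total. In bulk RNA, fewer cells of a kind and less RNA per cell cannot be told apart. The female library had the smallest sum in both groups.

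Counts per kb of exon correct for length, so that genes can be set side by side approximately. The length joins all annotated exons of a gene and can exceed that of the transcripts present, by unequal amounts. On this scale the 46 tested members spanned from Hspa5 at 1588 ± 248 normalized counts per kb in WT iGB6 and 1428 ± 221 in IgHMOG iGBGFP to Hyou1 at 3.73 ± 3.18 in WT iGB6 and 3.73 ± 2.46 in IgHMOG iGBGFP. P4hb came second, at 1116 ± 54.3 per kb in WT iGB6 and 682 ± 58.1 in IgHMOG iGBGFP, and its levels lay below those of Hspa5 in each group by more than their SDs. Hsp90b1, Calr, Herpud1 and Pdia6 followed, between 428 and 586 per kb in WT iGB6 and between 386 and 527 in IgHMOG iGBGFP, and most of these neighbours did not separate beyond their spread, the exception being Hsp90b1 (586 ± 112) and Herpud1 (428 ± 38.8) in WT iGB6. The sensors were at the low end, with Atf6 at 18.7 ± 6.14, Eif2ak3 at 6.23 ± 0.931 and Ern1 at 4.20 ± 1.64 per kb in WT iGB6 and 23.1 ± 8.47, 11.3 ± 1.80 and 6.58 ± 2.77 in IgHMOG iGBGFP (SD, n = 3 each).

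**Figure D3:**
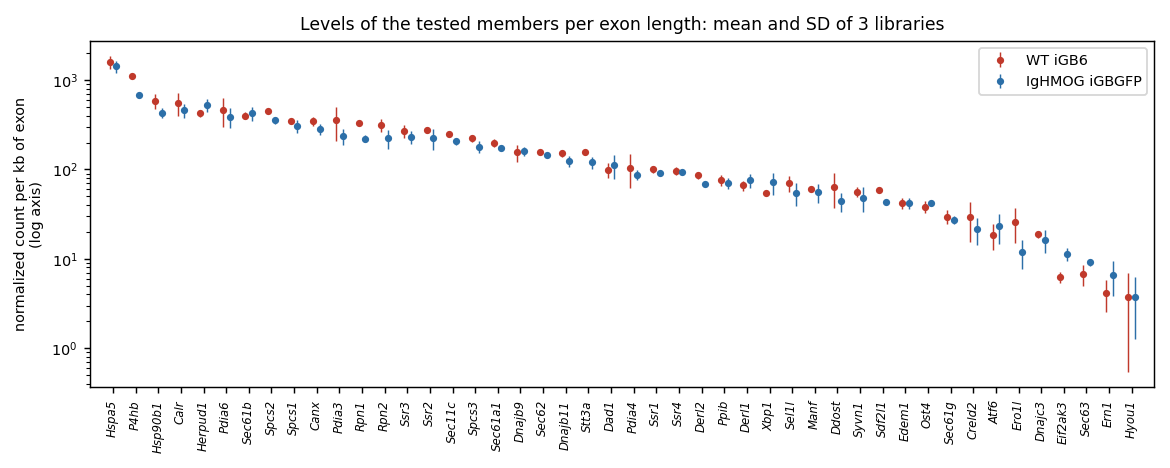
Normalized counts per kb of exon (log axis) for the 46 tested members, as mean and SD of 3 libraries, ordered by the mean over all 6 libraries. Points of the 2 groups lie close together for most genes, and P4hb in second place is 1116 per kb in WT iGB6 and 682 in IgHMOG iGBGFP.

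None of the 12 ER chaperones and folding helpers passed, 10 of 12 were fitted above 0, and their median log2 fold change was 0.24. Hspa5, the Hsp70 of the ER and the most abundant member, had 5627, 7721 and 6797 normalized counts in WT iGB6, against 4960.1, 6632 and 6519 in IgHMOG iGBGFP. The groups overlapped, with the female library lowest in each, and the log2 fold change was 0.15 (SE 0.17, adjusted p = 0.630 by limma), a 1.11-fold difference with a 95% interval of 0.851 to 1.45. Hsp90b1, the ER member of the Hsp90 family, had 1895, 2794 and 2401 in WT iGB6, against 1530.3, 1701 and 1964 in IgHMOG iGBGFP. Only the female WT iGB6 library overlapped with IgHMOG iGBGFP, and the log2 fold change of 0.44 (SE 0.17) did not pass (limma, adjusted p = 0.142). The lectin chaperones calreticulin (Calr) and calnexin (Canx), which hold glycoproteins while they fold, had log2 fold changes of 0.24 and 0.30 (limma, adjusted p = 0.441 and 0.298), and both overlapped.

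Sdf2l1, a partner of BiP chosen here after its values were seen, had the tightest libraries: 66.4, 64.7 and 66.4 normalized counts in WT iGB6, against 48.1, 44.8 and 49.98 in IgHMOG iGBGFP. It was the single chaperone without overlap, and at these low counts its log2 fold change of 0.46 (SE 0.24) did not pass (limma, adjusted p = 0.269). The other 7 were the BiP co-chaperones Dnajb9, Dnajb11 and Dnajc3, the ER Hsp110 Hyou1, the secreted ER stress proteins Creld2 and Manf, and the prolyl isomerase Ppib. They had log2 fold changes from -0.16 to 0.39 and overlapping groups. Hyou1 varied most between libraries, at 19.0, 52.9 and 9.00 in WT iGB6 and 17.4, 47.4 and 16.0 in IgHMOG iGBGFP. Of the exons of Ppib, 25% overlap those of Snx22 on the other strand, and the library kit is not stated to keep strand.

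Several chaperone genes share a sequence element of the ER stress response. The list was drawn up from genes of ER folding and of that response, so the shares below describe the members and are no independent test. The ER stress response element (ERSE), bound by ATF6 together with NF-Y in textbook accounts, has the letters CCAAT and CCACG with any 9 bases between them, and a second element, ERSE-II, has ATTGG and CCACG with any 1 base between them. Both were searched on both strands of the RefSeq promoter windows of GRCm38.p6, which held 39 of the 47 members. ERSE stood in 9 of those 39 genes (23.1%) and in 37 of 27025 genes with a window (0.137%), and ERSE-II in 2 of 39 (5.13%) and in 12 of 27025 (0.0444%). A further word, GACGTGG, the core of the UPR element bound by XBP1, stood in 3 of 39 members (7.69%) and in 2.73% of all genes. The windows searched run from 250 bases before to 50 after each start. The stretches shown are those of the 2 most abundant chaperones, the 2 lectins, the isomerase Pdia6, the co-chaperone Dnajc3, the degradation gene Herpud1 and the near-silent Derl3. The 5-base ends of ERSE, or the whole of ERSE-II, are in capitals, read 5′ to 3′ on the gene's strand, with the reverse form showing as CGTGG and ATTGG. Hsp90b1 holds 2 copies, 1 in each direction.
Hspa5: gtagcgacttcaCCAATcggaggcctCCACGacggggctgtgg
Hsp90b1: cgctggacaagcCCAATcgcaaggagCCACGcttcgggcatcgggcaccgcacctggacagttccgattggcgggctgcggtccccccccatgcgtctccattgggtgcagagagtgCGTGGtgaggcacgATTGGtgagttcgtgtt
Calr: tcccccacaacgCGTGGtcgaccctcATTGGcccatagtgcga
Canx: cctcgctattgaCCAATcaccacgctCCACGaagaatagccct
Pdia6: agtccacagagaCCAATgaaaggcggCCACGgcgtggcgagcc
Dnajc3: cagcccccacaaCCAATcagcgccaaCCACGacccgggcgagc
Derl3: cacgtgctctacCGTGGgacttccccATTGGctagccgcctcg
Herpud1: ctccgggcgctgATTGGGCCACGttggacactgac

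In GRCm38.p6 these stretches are chr2:34772013-34772055 (plus strand) for Hspa5, chr10:86705521-86705668 (minus) for Hsp90b1, chr8:84847063-84847105 (minus) for Calr and chr11:50325788-50325830 (minus) for Canx. Those of Pdia6, Dnajc3, Derl3 and Herpud1 are chr12:17266479-17266521, chr14:118937815-118937857, chr10:75893230-75893272 and chr8:94386365-94386399, all on the plus strand. All lie upstream of the RefSeq start: that of Hspa5 ends 35 bases before it and that of Hsp90b1 begins 224 bases before it. In GENCODE M21 the gene Hspa5 begins further upstream, at position 34771970 of chromosome 2, so that its stretch lies inside the gene as annotated there. ERSE was also found in Creld2 and Syvn1, and ERSE-II in Dnajb11. Of the 10 tested members with either element, none passed and 9 were fitted above 0, with a median log2 fold change of 0.26. Of the 28 with a window and neither element, 1 passed (P4hb), with a median of 0.15. Outside the list, 38 genes held either element. Of these, 10 were tested, none passed, and their median was 0.10. A match of letters does not show that a factor binds there.

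**Figure D4:**
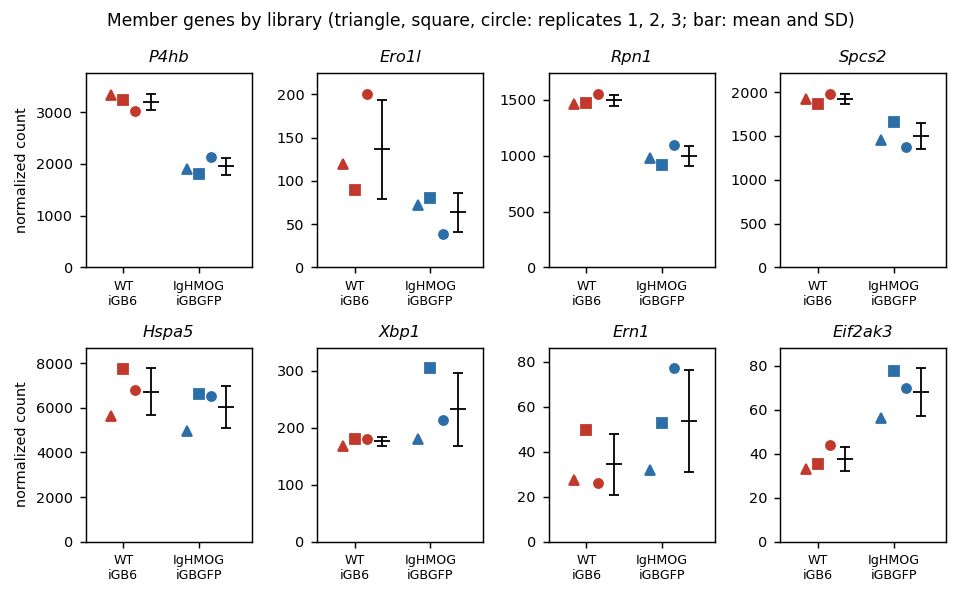
Normalized counts by library for 8 members, with replicates 1, 2 and 3 as triangle, square and circle and the mean and SD of 3 libraries beside them, on axes that start at 0. P4hb, Ero1l, Rpn1 and Spcs2 lie higher in WT iGB6 and Eif2ak3 lies lower without overlap, whereas Hspa5, Xbp1 and Ern1 overlap.

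The 5 disulfide-forming enzymes were all fitted above 0, with a median log2 fold change of 0.52, and 1 passed. P4hb (ENSMUSG00000025130, chr11:120560298-120573253 on the minus strand of GRCm38), which also serves as the beta subunit of prolyl 4-hydroxylase, had 3329, 3225 and 3024 normalized counts in WT iGB6, against 1905, 1811 and 2134 in IgHMOG iGBGFP. The 3 WT iGB6 libraries all lay above the 3 IgHMOG iGBGFP libraries, with means of 3192 ± 155 in WT iGB6 and 1950.0 ± 166 in IgHMOG iGBGFP (SD, n = 3 each). The log2 fold change was 0.71 (SE 0.16, adjusted p = 0.0368 by limma), with a 95% interval of the fold from 1.27 to 2.114. On the recovered reads the adjusted p was 0.0488 with edgeR and 0.00960 with DESeq2, and the authors' deposited table gives a log2 fold change of 0.68 with an adjusted p of 0.00566. P4hb passed in 10 of the 18 alternatives, and its log2 fold change stayed between 0.50 and 0.79 in all of them. Without IgHMOG iGBGFP replicate 3, the library with the highest Jchain and Ighg1, it was 0.79 (adjusted p = 0.101), in a fit that called 26 genes in all.

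Ero1l, the oxidase that recharges the disulfide isomerases, was chosen after its values were seen. It had 119.8, 89.2 and 200.2 normalized counts in WT iGB6, against 72.6, 80.2 and 38.0 in IgHMOG iGBGFP. The groups did not overlap, though WT iGB6 replicate 2 lay within 10 normalized counts of the highest IgHMOG iGBGFP library. The log2 fold change of 1.08 (SE 0.36) was the highest among members and did not pass (limma, adjusted p = 0.104). It passed with DESeq2 (adjusted p = 0.0467) and with no filter on low counts (adjusted p = 0.0226). With WT iGB6 replicate 2 left out it passed at 1.36 (adjusted p = 0.0106), but it was 0.695 without WT iGB6 replicate 3 (adjusted p = 0.237) and 0.723 without IgHMOG iGBGFP replicate 3 (adjusted p = 0.298). The authors' deposited table gives an adjusted p of 0.0537.

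Pdia3, which folds glycoproteins together with the lectins, had 1384, 580.2 and 1391 normalized counts in WT iGB6, against 872, 579.6 and 754 in IgHMOG iGBGFP. Replicate 2 was the lowest library in both groups, at nearly the same level, and the groups overlapped there. The log2 fold change was 0.52 (SE 0.29, adjusted p = 0.300 by limma), and with 1 library left out it ranged from 0.18 without WT iGB6 replicate 3 (adjusted p = 0.689) to 0.90 without WT iGB6 replicate 2 (adjusted p = 0.0120). Pdia6, which also binds the lumenal side of the stress sensors, had 1214, 2400.4 and 1553 in WT iGB6, against 1037, 1746 and 1553 in IgHMOG iGBGFP, and its log2 fold change of 0.23 did not pass (limma, adjusted p = 0.505). Here replicate 2 was the high one in both groups. Pdia4 overlapped at 165 to 364 in WT iGB6 and 183 to 233 in IgHMOG iGBGFP.

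The UPR genes were the single role group with all members fitted below 0, at a median log2 fold change of -0.49, and 0 of 4 passed by limma or DESeq2. Eif2ak3, which codes for PERK and lies at chr6:70844515-70905245 on the plus strand of GRCm38, had 33.2, 35.5 and 43.9 normalized counts in WT iGB6, against 56.3, 77.6 and 70.0 in IgHMOG iGBGFP. The groups did not overlap, and its log2 fold change of -0.84 (SE 0.25) was the lowest among members and did not pass (limma, adjusted p = 0.0754). It passed in 1 of 18 alternatives, with weights per library (adjusted p = 0.0211). The exons of Gm43292 on the other strand overlap 8.05% of those of Eif2ak3.

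Ern1, which codes for IRE1, had 27.3, 49.7 and 25.9 normalized counts in WT iGB6, against 31.7, 52.6 and 77.0 in IgHMOG iGBGFP. Xbp1, the mRNA that IRE1 splices, had 167, 181 and 180.0 in WT iGB6, against 180.0, 304 and 214 in IgHMOG iGBGFP. Atf6 had 123, 234 and 159.7 in WT iGB6, against 151, 186 and 301 in IgHMOG iGBGFP. In these 3 genes the highest library was replicate 2 or 3 of IgHMOG iGBGFP, the groups overlapped and no log2 fold change passed (limma, -0.61, -0.37 and -0.29, adjusted p = 0.298, 0.313 and 0.494). With 1 library left out, the log2 fold change of Ern1 ran from -0.81 without WT iGB6 replicate 2 to -0.29 without WT iGB6 replicate 3, that of Xbp1 from -0.50 without replicate 1 of either group to -0.19 without IgHMOG iGBGFP replicate 2, and that of Atf6 from -0.49 without IgHMOG iGBGFP replicate 2 to -0.09 without IgHMOG iGBGFP replicate 3. It was also over 1.5 times nearer 0 for Ern1 without IgHMOG iGBGFP replicate 3 (-0.40) and for Atf6 without WT iGB6 replicate 3 (-0.13), and farther from 0 by as much for Atf6 without WT iGB6 replicate 2 (-0.45). No value passed in these fits. Gene counts do not separate spliced from unspliced Xbp1, so the activity of IRE1 was not measured. The marker lists of dendritic cells, MHC class II and plasma cells summed to at most 513, 14112 and 2337 normalized counts in WT iGB6, against 2221, 46480.3 and 4565 in IgHMOG iGBGFP replicate 3, the library with the highest sum of each list. Ighm alone made up 4014 of the plasma cell sum in that library. The part of these lists in the UPR values was not tested.

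None of the 6 tested genes of ER-associated degradation, which draws misfolded proteins back to the cytosol for the proteasome, passed, and their median log2 fold change was 0.14. Herpud1, a stress-induced scaffold of the degradation complex and the most abundant of them, had 997, 1089 and 908 normalized counts in WT iGB6, against 1009.6, 1257 and 1422 in IgHMOG iGBGFP. It overlapped, and its log2 fold change of -0.29 did not pass (limma, adjusted p = 0.342). It was 1 of the 12 members fitted below 0. Derl2, a derlin of the retrotranslocation channel, had 761, 650.4 and 660.3 in WT iGB6, against 545, 536 and 584 in IgHMOG iGBGFP. It did not overlap, and its log2 fold change was 0.31 (limma, adjusted p = 0.271). The ubiquitin ligase Syvn1 and its adaptor Sel1l were at 0.27 and 0.38, Edem1, which marks glycoproteins for removal, at 0.00 and Derl1 at -0.17.

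The 9 translocon genes gave no call and a median log2 fold change of 0.11, and the 95% interval lay inside -1 to 1 for all 9. Sec61a1, the channel itself, had 1249, 1493 and 1277 normalized counts in WT iGB6, against 1178, 1133 and 1229 in IgHMOG iGBGFP. These did not overlap and differed by 0.18 on the log2 scale (limma, adjusted p = 0.538). Sec63, the J-domain protein that couples BiP to the channel, had 41.5, 68.7 and 68.6 in WT iGB6, against 72.6, 81.9 and 86.0 in IgHMOG iGBGFP, and was the other member besides Eif2ak3 that lay lower in WT iGB6 without overlap (log2 fold change -0.46, limma adjusted p = 0.271). Ssr3, a subunit of the translocon-associated complex, had 927, 1265 and 1175 in WT iGB6, against 866, 881 and 1148 in IgHMOG iGBGFP, with a log2 fold change of 0.22 (limma, adjusted p = 0.474). The small channel subunits Sec61b and Sec61g, the auxiliary Sec62 and the complex subunits Ssr1, Ssr2 and Ssr4 had log2 fold changes from -0.08 to 0.33 and overlapping groups.

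All 4 signal peptidase genes were fitted above 0, at 0.18 to 0.36 on the log2 scale, and none passed. Spcs2, a subunit of the complex, had 1926, 1864 and 1975 normalized counts in WT iGB6, against 1452, 1664 and 1375 in IgHMOG iGBGFP. The groups did not overlap, and the log2 fold change of 0.36 (SE 0.16) did not pass (limma, adjusted p = 0.202). The catalytic subunit Sec11c had 1769, 1613 and 1730.0 in WT iGB6, against 1520.0, 1455 and 1278 in IgHMOG iGBGFP, again without overlap (0.27, limma adjusted p = 0.336). Spcs1 and Spcs3 overlapped, and 16.3% of the exons of Spcs1 overlap those of Glt8d1.

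Of the 6 oligosaccharyltransferase genes none passed, 4 were fitted above 0 and the median log2 fold change was 0.43. Rpn1, the ribophorin that holds substrates near the catalytic site, had 1463, 1474 and 1552 normalized counts in WT iGB6, against 979, 919 and 1093 in IgHMOG iGBGFP. All 3 WT iGB6 libraries lay above all 3 IgHMOG iGBGFP libraries, and the log2 fold change of 0.59 (SE 0.16) fell just outside the threshold (limma, adjusted p = 0.0578). The authors' deposited table gives Rpn1 an adjusted p of 0.0363. Stt3a, the catalytic subunit that works alongside the translocon, had 1268, 1469 and 1472 in WT iGB6, against 955, 991 and 1264 in IgHMOG iGBGFP. The groups were separated by 4 normalized counts at their closest, and the log2 fold change was 0.40 (SE 0.17, adjusted p = 0.175 by limma).

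Rpn2, the other ribophorin and chosen after its values were seen, had 1407, 1619 and 1156 normalized counts in WT iGB6, against 731, 1039 and 1207 in IgHMOG iGBGFP. It overlapped through WT iGB6 replicate 3, and its log2 fold change of 0.51 (limma, adjusted p = 0.164) was 0.71 with that library left out (adjusted p = 0.0354) and 0.289 without replicate 1 of either group (adjusted p = 0.612 without that of WT iGB6 and 0.610 without that of IgHMOG iGBGFP). Ddost, which anchors the complex, overlapped widely at 72.6 to 186 in WT iGB6 and 74.0 to 119 in IgHMOG iGBGFP. The small subunits Dad1 and Ost4 were fitted at -0.14 each, and 53.2% of the exons of Ost4 overlap those of Agbl5, so its reads are uncertain.

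Group effects did not differ detectably between the sexes for any member. A limma fit with the interaction of sex and group called 0 of 46 members and 0 of 9923 genes, and an unadjusted p under 0.05 was reached by 0 members and 148 genes (1.49%). With 1 female in each group this test can detect large differences only. Fitted effects were above 0 in both sexes for 30 members and below 0 in both for 10, and P4hb stood at 0.67 in males and 0.81 in the female pair.

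Further genes of the secretory route came from 8 lists of 95 genes in all, of which 85 were tested. Of these 85, 2 passed as higher and 2 as lower in WT iGB6 (4.71%, against 6.12% of all genes), and their median log2 fold change was 0.12. No gene passed among 8 of the signal recognition particle and its receptor, 17 of the COPII coat and ER export, 15 other isomerases and folding enzymes, 13 other degradation factors, 8 other subunits of the glycosylation, peptidase and channel complexes, and 6 other stress transducers. Over these 6 lists, 13 of 67 genes (19.4%) reached an unadjusted p under 0.05, against 24.5% of all genes. On the recovered reads edgeR called 0 of 67, against 6.11% of all genes, and DESeq2 called 1 (1.49%, against 9.58%), the stress transducer Creb3l1 (adjusted p = 0.0400 with DESeq2 and 0.0757 by limma). The medians of these 6 lists ran from 0.07 to 0.18. In the COPII list, whose coat buds vesicles off the ER, 8 of 17 genes did not overlap (47.1%, against 23.6% of all genes), 6 higher (35.3%, against 12.2%) and 2 lower in WT iGB6 (11.8%, against 11.4%). Examples are Sec23a at 256, 296 and 324 normalized counts in WT iGB6 against 172, 155 and 234 in IgHMOG iGBGFP (log2 fold change 0.66, limma adjusted p = 0.0853), and Tmed10, the most abundant of the list, at 0.15 (limma adjusted p = 0.604).

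Copg1, a subunit of the COPI coat that returns ER residents from the Golgi, had 856, 663 and 733 normalized counts in WT iGB6, against 504, 399 and 493 in IgHMOG iGBGFP. It rose without overlap, with a log2 fold change of 0.69 (SE 0.17, adjusted p = 0.0427 by limma), 1 of 9 genes called in its list of COPI and retrieval genes. The call was lost in 7 of 18 alternatives, among them those without replicate 1 of either group, without IgHMOG iGBGFP replicate 2 and without IgHMOG iGBGFP replicate 3 (adjusted p 0.108 to 0.196). These 4 fits called 4 to 135 genes in all, against 607 in the main fit.

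**Figure D5:**
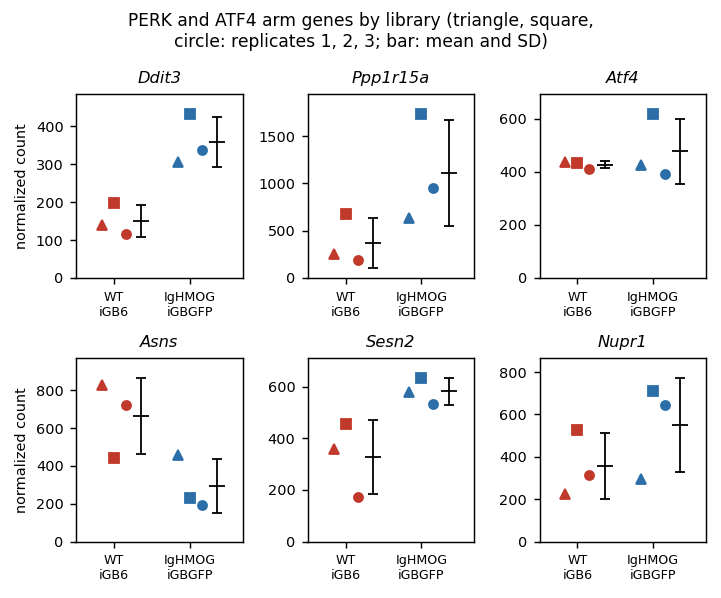
Normalized counts by library for 6 genes of the PERK and ATF4 arm, Atf4 among them, with replicates 1, 2 and 3 as triangle, square and circle and the mean and SD of 3 libraries, on axes that start at 0. Ddit3 and Sesn2 lie lower in WT iGB6 without overlap, Ppp1r15a averages 373 in WT iGB6 and 1109 in IgHMOG iGBGFP, and Asns averages 666 in WT iGB6 and 294 in IgHMOG iGBGFP.

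The other 3 calls came from the 9 genes of the PERK and ATF4 arm (33.3%, against 6.12% of all genes). DESeq2 called 2 of the 9 (22.2%, against 9.58% of all genes). The median log2 fold change of the arm was -0.36, and its members moved in both directions. Ddit3, which codes for the stress factor CHOP, had 139, 197 and 115 normalized counts in WT iGB6, against 305, 433 and 339 in IgHMOG iGBGFP. It fell without overlap, by 1.27 on the log2 scale (SE 0.23, adjusted p = 0.0186 by limma). Ppp1r15a, which codes for GADD34 and lets translation resume, had 254, 677 and 189 in WT iGB6, against 637, 1734 and 955 in IgHMOG iGBGFP. Replicate 2 was highest in both groups, the groups overlapped, and it fell by 1.67 (SE 0.41, adjusted p = 0.0414 by limma and 0.110 with DESeq2). Asns, the asparagine synthetase that ATF4 induces, had 830.0, 443 and 724 in WT iGB6, against 459, 231 and 192 in IgHMOG iGBGFP.

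Asns rose, with a log2 fold change of 1.23 (SE 0.23, adjusted p = 0.0187 by limma), while WT iGB6 replicate 2 overlapped with IgHMOG iGBGFP replicate 1. Atf4 itself had 438, 432 and 412 normalized counts in WT iGB6, against 425, 617 and 391 in IgHMOG iGBGFP (-0.13, limma adjusted p = 0.736). Trib3, Chac1, Nupr1, Sesn2 and Ppp1r15b did not pass. The calls of all 3 genes were lost without IgHMOG iGBGFP replicate 2 (adjusted p = 0.152 for Ddit3, 0.244 for Ppp1r15a and 0.139 for Asns) and without IgHMOG iGBGFP replicate 3 (0.0958, 0.133 and 0.110). Those of Ddit3 and Ppp1r15a were also lost without replicate 1 of either group (0.0606 to 0.0834). Few genes passed at all in these fits: 4 and 26 without IgHMOG iGBGFP replicates 2 and 3, against 607 in the main fit. Without replicate 1 of WT iGB6 and of IgHMOG iGBGFP, 135 and 128 genes passed. With all 6 libraries kept, the model of group alone also lost all 3 calls (limma, adjusted p = 0.0996 for Ddit3, 0.135 for Ppp1r15a and 0.130 for Asns). It called 10 genes in all. A filter at a mean of 50 lost that of Ppp1r15a (limma, adjusted p = 0.0501).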

How the data were processed

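The 6 libraries of CD11b+ spleen cells were grouped by their labels. The deposited signal values are normalized counts per Ensembl gene, named after featureCounts in the file headers. The authors divided reads by 1 size factor per library: dividing each column by its step gave back whole reads for 100% of values within 0.001. The authors' deposited comparison gives log2 fold changes, a Wald score, p-values and adjusted p-values without a header. Per the submitters' processing notes, the tools include STAR 2.7.10b, cutadapt 4.4, FastQC 0.74, DESeq2 2.11.40.7 and featureCounts 2.0.3, and the builds GRCm38 and mm10, without roles. How strand and multi-mapping reads were treated, and with which annotation, is not stated in those sources. The labels describe no molecular identifiers, so limits from counts cover counting error only.

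Symbols, coordinates and exon lengths came from GENCODE M21. R 4.3.3 ran limma 3.58.1 (eBayes with trend) as the main test on log2(normalized count + 1), which understates changes of low genes, for genes with a mean of at least 10. SE is the moderated standard error. edgeR 4.0.16 and DESeq2 1.42.0 on recovered reads and 16 other settings were alternatives, 1 of them (library totals as scale) added after the data were seen. The fits were run on simulated data with the same spread setting for every gene, no sex effect and planted changes larger than that of P4hb. That run does not show how well smaller changes are found in these data. Promoters came from RefSeq (GRCm38.p6). The members, lists and the rule for named genes were chosen with earlier results of these data known; the rule names called members, the 2 most abundant and the lowest p per role, and all UPR genes. The labels do not say whether a replicate number pairs animals.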

Additional observations from a re-analysis of the deposited data

How the results depend on the processing

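Across the 18 alternatives the median log2 fold change of the ER members stayed between 0.16 and 0.24, except with library totals as scale, where it was -0.0031 and that of all genes -0.19. The number of members called higher (1 with the main settings) was 2 without the filter on low counts, 2 with a replicate block, 4 with library weights and 2 with DESeq2, and 0 without the sex term, with library totals and in males only. It ran from 0 to 2 with 1 library left out. Members called lower were 0 in 17 alternatives and 1 with library weights. Over all genes, 273 higher calls became 459 without the filter, 6 without the sex term, 435 with the block, 731 with weights, 82 with library totals, 422 with DESeq2, 62 in males only, and 3 to 410 with 1 library left out. The 334 lower calls became 620, 4, 566, 712, 352, 529 and 72 in the same order, and 1 to 673 with 1 library left out. Of the other secretory genes, 2 higher calls became 0 without the sex term, 7 with weights, 1 with library totals, 1 in males only, and 0 to 4 with 1 library left out. Their 2 lower calls became 1 with a filter at 50, 4 without a filter, 0 without the sex term, 4 with the block, 1 with DESeq2, 0 in males only, and 0 to 5 with 1 library left out. The cause of these shifts was not tested, except that males only has fewer samples.

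The labels number replicates 1 to 3 in both groups without saying that a number marks a shared litter or day. Same-numbered replicates match in sex, and the mouse numbers in their titles lie close together, so a pairing is possible. Deviations of same-numbered libraries correlated at 0.482, 0.350 and 0.0407. The values 0.482 and 0.350 were above those of all other pairs between the groups, but WT iGB6 replicate 3 correlated best with IgHMOG iGBGFP replicate 1 (0.0850). This left a pairing undecided, and the block was not part of the main test. With the block, 1001 genes were called, against 607 in the main fit, and Rpn1 passed (limma, adjusted p = 0.0397).

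Leaving out WT iGB6 replicate 1 or IgHMOG iGBGFP replicate 1 leaves a lone female, which the sex term absorbs, so these settings equal males only in effect size. Depth limits the low genes: of the tested members, Hyou1, Ern1, Eif2ak3, Creld2, Sdf2l1, Sec61g and Ost4 averaged under 80 normalized counts in each group.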
